A study of Mus musculus with 2 samples.

Results

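Regulatory T cells are the CD4 T cells that restrain other immune cells. They are defined by the transcription factor Foxp3, and they carry high surface levels of the interleukin-2 receptor alpha chain and of CTLA-4. In tumours they accumulate in an activated form and dampen the response of effector T cells, through inhibitory cytokines, release of active TGF-beta, consumption of interleukin-2 and CTLA-4-dependent loss of costimulation. The 155 cells described here are the Foxp3-positive T cells of a single-cell RNA-sequencing study of Hepa1-6 tumours, a mouse hepatoma line grown as a tumour. They are 155 of 15267 barcodes that passed the quality filter and of 17369 barcodes deposited.

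The members were chosen on measured values. A barcode needed at least 500 UMIs (unique molecular identifiers, each standing for 1 captured transcript), 300 or more genes and no more than 15% of UMIs from mitochondrial genes. It then needed at least 2 UMIs over the CD3 genes Cd3e, Cd3d and Cd3g and at least 1 of Foxp3, with at most 1 of Cd8a plus Cd8b1, at most 2 of the keratins Krt8 plus Krt18 and at most 1 of the myeloid genes Lyz2, Csf1r and S100a8. These 11 genes are therefore described and are no finding.

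There were 2 libraries. The tumours of one came from mice given CD147-LYTACs at 40 mg/kg every 3 days, 4 doses in all, by a route stated as intraperitoneal or intravenous. The tumours of the other came from mice labelled control, for which no vehicle is named. LYTACs are lysosome-targeting chimaeras, which carry membrane or secreted proteins to the lysosome for degradation. CD147 is basigin, encoded by Bsg, a membrane glycoprotein that chaperones monocarboxylate transporters, the carriers of lactate. Tumours of both libraries were taken on day 12 and sorted on CD45, and the CD45-negative and CD45-positive cells were mixed again at 1 to 3 before loading. How many mice or tumours went into a library is not stated, and with 1 library per group no difference between the groups has a replicate check. The CD147-LYTACs library held 64 members and the control library 91.

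The deposited matrices held 149812326 UMIs in the CD147-LYTACs library and 143495332 in the control library. Members had a median of 7212 UMIs and 2641.5 genes in the CD147-LYTACs library, against 6095 UMIs and 2436 genes in the control library. Summed over members this gave 562517 UMIs with CD147-LYTACs and 775048 in control, and the deepest single cell held 6.38% and 4.62% of its sum. Ribosomal protein genes took 15.1% of the members' UMIs with CD147-LYTACs and 12.4% in control, and were likewise higher with CD147-LYTACs in conventional CD4 T cells (17.4% against 14.7%) and in CD8 T cells (19.05% against 16.8%). Of the barcode sequences, 24 occurred in both libraries, 1 of them a member.

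Regulatory T cells took a similar share of the T cells in both libraries. They were 2.57% of 2486 gated T cells with CD147-LYTACs (64 cells, exact 95% binomial interval 1.99% to 3.28%) and 2.65% of 3440 in control (91 cells, 2.14% to 3.24%). Among CD4-lineage cells, meaning members plus conventional CD4 T cells, they were 26.7% with CD147-LYTACs (21.2% to 32.7%) and 24.6% in control (20.3% to 29.3%). Gated T cells of at least 2000 UMIs were also thinned to 2000, with the Foxp3 and Cd8 limits applied to the thinned counts. The share was then 1.65% with CD147-LYTACs (40 of 2431 cells) and 2.01% in control (68 of 3390 cells). Foxp3-positive cells left out of the members for their Cd8 UMIs can pass after thinning, so these cells need not all be members. The intervals overlap in each case. They cover counting error only, since cells of 1 library are not replicates.

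Foxp3 itself stood at a median of 3 UMIs per member in both libraries, with a highest count of 12 in the CD147-LYTACs library and 14 in the control library. Summed over members it was 388 CPM (counts scaled to 1e6 UMIs of the summed cells) with CD147-LYTACs and 426 CPM in control. At the edge of the rule, 15 members with CD147-LYTACs and 16 in control had a single Foxp3 UMI, 15 and 21 had 2, and 34 and 54 had 3 or more. Among members with 1 Foxp3 UMI, Ikzf2, which encodes Helios, was detected in 93.3% with CD147-LYTACs and 93.8% in control, against 97.1% and 94.4% of members with 3 or more Foxp3 UMIs. Just outside the rule, T cells with no Foxp3 UMI and at least 1 Cd4 UMI, called conventional CD4 T cells below (176 cells with CD147-LYTACs, 279 in control), had Ikzf2 in 52.8% and 54.1%. Hepatoma-gated cells had at least 10 keratin UMIs and no UMI of the CD3 genes or of the leukocyte gene Ptprc. They had an Ikzf2 UMI in 8.86% with CD147-LYTACs and 13.0% in control. Such shares are given as a rough measure of free RNA. The gate leaves out barcodes that took up CD3 or Ptprc RNA, and the cells' own expression is not told apart. Itgb8, the integrin subunit that releases active TGF-beta, was in 8 of 15 and 8 of 16 members with 1 Foxp3 UMI, and in 6.25% and 5.73% of conventional CD4 T cells. A Foxp3 UMI was in 0.361% of hepatoma-gated cells with CD147-LYTACs and 0.601% in control, and an Itgb8 UMI in 0.181% and 0.134%, at a median of 42353.5 and 45869 UMIs per cell.

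**Figure D1:**
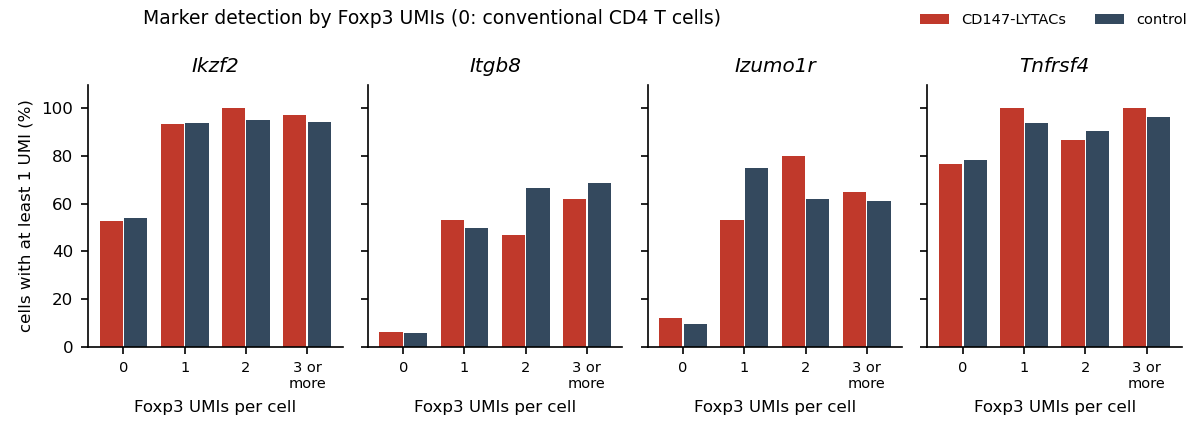
Percentage of cells with at least 1 UMI of 4 regulatory T cell markers (y axis) by the number of Foxp3 UMIs in the cell (x axis), for the CD147-LYTACs library (red) and the control library (blue). Cells with 0 Foxp3 UMIs are conventional CD4 T cells; Ikzf2 was in 52.8% and 54.1% of them and in at least 93.3% of members at every Foxp3 count.

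The rule did not ask for Cd4. It was detected in 38 of 64 members with CD147-LYTACs and 58 of 91 in control. Members without a Cd4 UMI still had Ikzf2 in 92.3% of cells with CD147-LYTACs and 93.9% in control. At the Cd8 edge, 39 Foxp3-positive T cells with CD147-LYTACs and 37 in control were left out for 2 or more Cd8 UMIs. Their median was 15538 and 15297 UMIs, against 7212 and 6095 in members, and Ikzf2 was in 100% and 90.0% of the 10 of them in each library with only 2 or 3 Cd8 UMIs. Members with 1 Cd8 UMI numbered 2 with CD147-LYTACs and 7 in control. Whether the left-out barcodes hold 2 cells was not tested.

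The label fitted the markers. Against conventional CD4 T cells of the same library, a gene is called higher or lower when it differed by at least 2-fold in the same direction in both libraries, with an exact 95% interval of the ratio that excludes no difference in each. Of 7044 genes with at least 30 UMIs, 194 (2.75%) were called higher in regulatory T cells and 218 (3.09%) lower. Of 11 regulatory T cell identity genes that no gate used, 9 were called higher and 1 lower, with a median log2 ratio of 1.77 with CD147-LYTACs and 1.95 in control. Conventional CD4 T cells were defined by the absence of a Foxp3 UMI, so they can include regulatory T cells whose Foxp3 was not captured, and their number was not tested.

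The transcription factors that act with Foxp3 were among the 9. Ikzf2 stood at 3363 CPM in regulatory and 514 CPM in conventional CD4 T cells with CD147-LYTACs, and at 4213 and 577 CPM in control, log2 ratios of 2.71 (2.59 to 2.83) and 2.87 (2.78 to 2.96). Ikzf4, encoding Eos, a Foxp3 partner in gene silencing, had log2 ratios of 1.77 with CD147-LYTACs and 2.19 in control. The populations stood well apart for both genes, and in both libraries.

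The receptors followed. Il2ra, the interleukin-2 receptor alpha chain, was at 1340 CPM in regulatory against 243 CPM in conventional CD4 T cells with CD147-LYTACs, and at 868 against 225 CPM in control (log2 2.46 and 1.95). Ctla4, which strips costimulatory ligands from antigen-presenting cells, was at 1397 against 572 CPM with CD147-LYTACs and 1817 against 678 CPM in control, log2 ratios of 1.29 and 1.42. A Ctla4 UMI was in 90.6% of regulatory and 88.1% of conventional CD4 T cells with CD147-LYTACs and in 98.9% and 89.2% in control, and also in 39.6% of hepatoma-gated cells with CD147-LYTACs and 46.7% in control. The TNF receptors Tnfrsf18 (GITR) and Tnfrsf4 (OX40) had log2 ratios of 1.02 and 1.24 with CD147-LYTACs, and of 1.19 and 1.23 in control. Without cells of 10 or more myeloid UMIs the Tnfrsf18 call was lost, at a mean log2 of 1.08. Izumo1r, the folate receptor 4 of regulatory T cells, was at 155 against 23.0 CPM with CD147-LYTACs and 151 against 17.5 CPM in control. Izumo1r thus differed more between the populations than either TNF receptor, with log2 ratios of 2.75 and 3.11.

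The pair of surface molecules that present and release TGF-beta separated the populations most among the identity genes. Lrrc32, encoding GARP, which holds latent TGF-beta on the cell, was at 85.3 CPM in regulatory against 2.03 CPM in conventional CD4 T cells with CD147-LYTACs, and at 110 against 4.16 CPM in control (log2 5.40, 3.76 to 7.72, and 4.72, 3.77 to 5.83). Itgb8 was at 197 against 12.8 CPM with CD147-LYTACs and 280 against 30.4 CPM in control (log2 3.94 and 3.20). The cytokine gene Tgfb1 itself was not called, with 263 CPM in regulatory and 396 CPM in conventional CD4 T cells with CD147-LYTACs, and 301 and 409 CPM in control. The exception among the identity genes was Nrp1, encoding neuropilin-1, a marker of thymus-derived regulatory T cells, which was lower: 51.6 against 129 CPM with CD147-LYTACs and 36.1 against 126 CPM in control (log2 -1.32 and -1.81). Capg, an actin-capping protein gene, had log2 ratios of 0.81 and 0.95 and was not called.

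**Figure D2:**
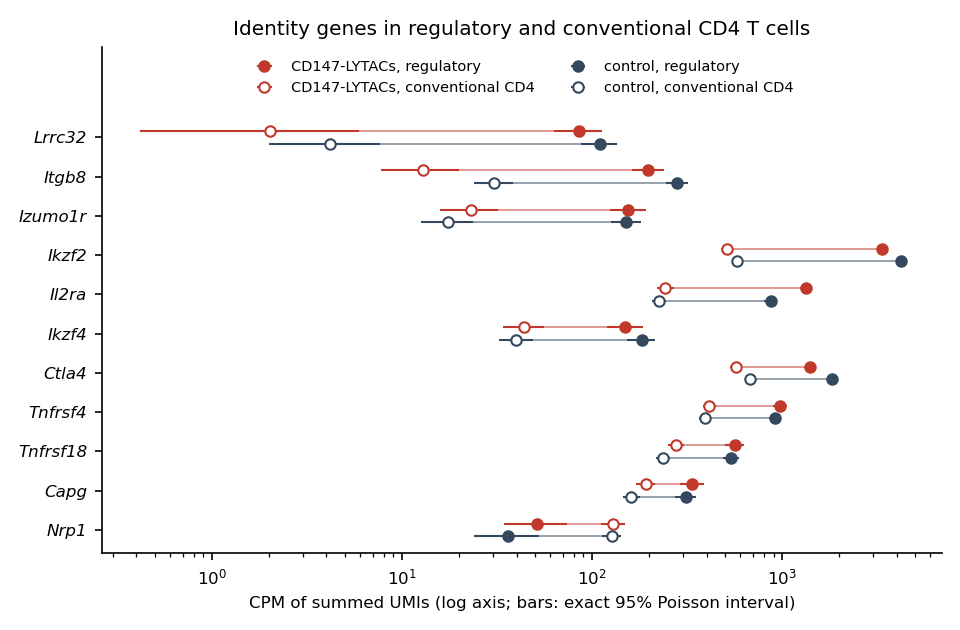
Summed level (x axis, CPM on a log axis) of 11 identity genes in regulatory (filled) and conventional CD4 (open) T cells of the CD147-LYTACs library (red) and the control library (blue), with exact 95% Poisson intervals as bars. Nrp1 is the gene whose regulatory T cells lie to the left, at 51.6 and 36.1 CPM.

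Start-site windows of some of these genes are shown because the identity genes were high together and the factors named here are known regulators of them: STAT5 acts downstream of interleukin-2, NFAT downstream of the T cell receptor, and Foxp3 itself binds forkhead motifs. Of 26 genes searched, 16 had windows in RefSeq on GRCm38.p6, 19 windows of 300 bases that run from 250 before to 50 after a start. A forkhead motif, TGTTTAC on either strand, was in 1 of the 19 windows, against 3.65% of 32851 windows of all genes. The STAT motif TTCNNNGAA was in 2 of the 19 (8.30% of all windows), and the NFAT motif TGGAAAA in 2 (6.73%). The 4 windows with a match are those of Foxp3 at chrX:7580233-7580532, Ctla4 at chr1:60908775-60909074, Tnfrsf18 at chr4:156026072-156026371 and Il1rl1 at chr1:40439379-40439678, all on the plus strand. Capitals mark the matches. In the Foxp3 window an NFAT and a STAT match overlap, in Ctla4 the match is NFAT, in Tnfrsf18 STAT and in Il1rl1 forkhead. A match describes letters and shows no binding.
Foxp3: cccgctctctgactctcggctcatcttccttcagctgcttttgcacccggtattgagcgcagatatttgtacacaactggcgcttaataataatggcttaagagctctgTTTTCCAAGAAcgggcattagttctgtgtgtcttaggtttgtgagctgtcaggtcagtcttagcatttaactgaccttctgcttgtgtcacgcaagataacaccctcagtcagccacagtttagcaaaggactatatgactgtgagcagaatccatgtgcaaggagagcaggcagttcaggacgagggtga
Ctla4: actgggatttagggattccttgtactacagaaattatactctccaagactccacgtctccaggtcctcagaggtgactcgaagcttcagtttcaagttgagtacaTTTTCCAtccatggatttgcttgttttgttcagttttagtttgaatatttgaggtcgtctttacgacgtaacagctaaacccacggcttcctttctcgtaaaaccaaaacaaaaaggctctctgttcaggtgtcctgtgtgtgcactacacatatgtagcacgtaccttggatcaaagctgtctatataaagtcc
Tnfrsf18: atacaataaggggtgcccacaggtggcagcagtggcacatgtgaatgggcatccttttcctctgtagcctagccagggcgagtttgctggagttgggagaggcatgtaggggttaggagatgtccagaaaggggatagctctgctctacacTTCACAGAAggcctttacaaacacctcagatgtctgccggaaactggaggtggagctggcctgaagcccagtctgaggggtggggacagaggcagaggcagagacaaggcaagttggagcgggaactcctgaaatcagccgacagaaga
Il1rl1: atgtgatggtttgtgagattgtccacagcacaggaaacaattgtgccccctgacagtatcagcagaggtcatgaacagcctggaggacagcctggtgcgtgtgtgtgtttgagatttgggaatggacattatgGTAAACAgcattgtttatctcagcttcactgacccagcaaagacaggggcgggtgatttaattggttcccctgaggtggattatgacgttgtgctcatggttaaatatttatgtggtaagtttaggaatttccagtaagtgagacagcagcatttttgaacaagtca

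The 15 genes with the highest ratios over conventional CD4 T cells held several receptors of tissue and effector T cells. Itgae, the alpha chain of the E-cadherin-binding integrin CD103, was at 160 CPM in regulatory against 4.73 CPM in conventional CD4 T cells with CD147-LYTACs and 119 against 8.74 CPM in control. Klrg1, a lectin-like receptor of differentiated T cells, was at 244 against 12.2 CPM with CD147-LYTACs and 145 against 7.49 CPM in control. Il1rl1 encodes ST2, the interleukin-33 receptor of tissue regulatory T cells, and was at 341 against 16.2 CPM with CD147-LYTACs and 181 against 36.6 CPM in control. Also among the 15 were Ky, Frmd5, Laptm4b, Lrrc32, Dgat2, Ankrd55, Msrb3, Tmtc2, Itgb8, Nckap5 and Myo1d. Ky, Frmd5, Laptm4b, Lrrc32, Dgat2, Ankrd55 and Msrb3 lost their calls in cells with no UMI of the rule's 7 keratin, myeloid and Cd8 genes. Their mean log2 ratios there were 4.44 to 6.06. Ky, a gene known from muscle, was at 69.3 against 0.675 CPM with CD147-LYTACs and 85.2 against 0.416 CPM in control, with log2 ratios of 6.68 (4.12 to 12.02) and 7.68 (5.15 to 13.00) on 1 conventional UMI in each library. Frmd5, a FERM-domain protein gene, was even between the libraries in regulatory T cells (334 and 326 CPM) and not in conventional ones (33.8 and 0.832 CPM). Dgat2, the last enzyme of triglyceride synthesis, had log2 ratios of 5.20 (3.56 to 7.54) with CD147-LYTACs and 4.22 (3.12 to 5.51) in control. Hepatoma-gated cells had a UMI of Laptm4b, Msrb3, Tmtc2, Nckap5 or Myo1d in 57.6% to 85.8% of cells. For these 5 genes the part of free RNA was not tested.

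The 10 genes with the lowest ratios were Dgki, Ntrk3, Dlg2, Exph5, Lrrk2, Gzmc, Tnfsf11, Dthd1, Lgals7 and Serpine2. Dlg2, a scaffold protein gene, had no UMI in regulatory T cells of either library but 356 CPM in conventional CD4 T cells with CD147-LYTACs and 359 CPM in control, at least 66.7-fold lower with CD147-LYTACs and at least 92.8-fold lower in control against a floor of 3 UMIs per library. Tnfsf11 encodes RANKL and was at 21.3 against 421 CPM with CD147-LYTACs and 7.74 against 493 CPM in control. Gzmc, a cytotoxic granzyme, was at 7.11 against 90.5 CPM with CD147-LYTACs and 2.58 against 262 CPM in control. For all 10 the regulatory T cells of both libraries lay below the conventional CD4 T cells of both. Within each library this was required by the way the genes were chosen.

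Helper cytokine genes were mostly lower in regulatory T cells, and several genes of suppressive molecules higher. Of 10 helper cytokine genes, 7 were called lower and 1 higher. Ifng, encoding interferon-gamma, was at 10.7 CPM in regulatory against 325 CPM in conventional CD4 T cells with CD147-LYTACs, and at 20.6 against 361 CPM in control. Il21, a cytokine that helps B cells, had no UMI in regulatory T cells, against 29.0 CPM in conventional CD4 T cells with CD147-LYTACs and 23.7 CPM in control. Ccl5 was the gene called higher, with log2 ratios of 1.32 with CD147-LYTACs and 2.35 in control. Of 17 suppressive molecules, 7 were called higher and 1, the enkephalin precursor Penk, lower. Il10, the inhibitory cytokine, was at 117 against 20.3 CPM with CD147-LYTACs and 89.0 against 17.5 CPM in control. Gzmb, the granzyme that regulatory T cells use to kill target cells, was at 372 against 75.6 CPM with CD147-LYTACs and 230 against 31.6 CPM in control. Entpd1, the ectoenzyme CD39 that breaks down extracellular ATP, had log2 ratios of 1.09 with CD147-LYTACs and 1.54 in control. Areg, the tissue-repair growth factor amphiregulin, had 1.24 and 1.32, but Areg was detected in 54.9% and 48.3% of hepatoma-gated cells, and without cells of 10 or more myeloid UMIs its call was lost at a mean log2 of 1.08.

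Most inhibitory receptors called were lower, and most costimulatory receptors called were higher. Of 10 inhibitory receptor genes, 1 (Ctla4) was called higher and 4 lower, among them Pdcd1, encoding PD-1, at 40.9 CPM in regulatory against 198 CPM in conventional CD4 T cells with CD147-LYTACs and 90.3 against 183 CPM in control. Btla, Cd96 and Cd200 were the others. Of 12 costimulatory receptor genes, 4 were higher (Tnfrsf4, Tnfrsf9, Tnfrsf18 and Cd27) and 2 lower (Cd226 and Cd40lg). The Pdcd1 call rested on the control library being just past 2-fold, at a log2 ratio of -1.02, and was lost under 4 alternatives, at a mean log2 of -1.42 to -1.86.

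Among chemokine receptors and homing molecules, 5 of 19 were higher, among them Ccr2, Itgb7 and Itgae, and 3 lower (Cxcr6, Cx3cr1 and Itgb1). Ccr2, the receptor for the monocyte chemokine CCL2, was at 398 against 51.3 CPM with CD147-LYTACs and 569 against 95.7 CPM in control. Cxcr6, a receptor of tissue-resident T cells, was at 126 against 440 CPM with CD147-LYTACs and 147 against 555 CPM in control. Ccr8, often used to mark tumour regulatory T cells, did not separate the populations: it was at 53.3 against 45.9 CPM with CD147-LYTACs and 33.5 against 39.1 CPM in control, log2 ratios of 0.22 (-0.45 to 0.86) and -0.22 (-0.91 to 0.42). Of 19 genes of tumour-activated regulatory T cells 6 were higher and none lower, the 6 being Tnfrsf9, Maf, Il1rl1, Klrg1, Itgae and Entpd1. Tnfrsf9, the activation receptor 4-1BB, was at 1460 against 544 CPM with CD147-LYTACs and 1360 against 426 CPM in control.

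Of 10 genes of resting regulatory T cells 3 were lower. Tcf7, the memory and stemness factor TCF-1, was at 8.89 against 81.0 CPM with CD147-LYTACs and 9.03 against 72.8 CPM in control, Bach2 had log2 ratios of -1.69 and -1.73, and Bcl2, the survival factor, of -1.95 and -3.59. Of 23 interferon-gamma response genes, 8 were higher and none lower: the GTPase genes Gbp2, Gbp3, Gbp4, Gbp5, Gbp7, Igtp, Irgm2 and Iigp1. Igtp was at 370 against 82.4 CPM with CD147-LYTACs and 272 against 77.4 CPM in control. None of 15 glycolysis, 23 oxidative phosphorylation or 27 proliferation genes was called in either direction, which needs both libraries. The proliferation list's median log2 ratio was 0.07 with CD147-LYTACs and 1.26 in control. Slc16a3, the lactate exporter MCT4, was the 1 gene called of 12 in the lactate and CD147 list, at 201 against 43.2 CPM with CD147-LYTACs and 237 against 37.4 CPM in control. Bsg, which encodes its chaperone CD147, was at 181 against 181 CPM with CD147-LYTACs and 112 against 150 CPM in control.

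The members were not uniform. Tnfrsf9 was in 96.9% of members with CD147-LYTACs and 98.9% in control, so nearly every one carried an activation marker. Thinned to 2000 UMIs it was in 87.3% and 84.6% of members, against 50.3% and 46.8% of conventional CD4 T cells. Ccr7, the lymph-node chemokine receptor, was in 67.2% of members with CD147-LYTACs and 72.5% in control, against 44.9% and 37.6% of conventional CD4 T cells. Tcf7 was in 3 of 64 members with CD147-LYTACs and 3 of 91 in control, against 26.1% and 20.1% of conventional CD4 T cells, but 69.0% of hepatoma-gated cells with CD147-LYTACs and 70.1% in control had a Tcf7 UMI.

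Effector genes were each seen in part of the members. Klrg1 was in 46.9% of members with CD147-LYTACs and 44.0% in control, Itgae in 51.6% and 41.8%, and Gzmb in 53.1% and 53.8%. Il10 was in 32.8% and 25.3%. Thinned to 2000 UMIs, the shares were 34.9% and 26.4% for Klrg1, 20.6% and 20.9% for Itgae, 38.1% and 31.9% for Gzmb, and 15.9% and 14.3% for Il10. These stayed above the shares of conventional CD4 T cells thinned in the same way, which were at most 5.71% for these 4 genes. Hepatoma-gated cells had a UMI of Tnfrsf9 in 8.86% and 8.81%, of Ccr7 in 1.81% and 2.94%, of Klrg1 in 0.0602% and 0.134%, of Itgae in 4.70% and 4.74%, of Gzmb in 4.10% and 2.67%, and of Il10 in 3.49% and 3.34%. Il10 was more often seen where Gzmb was: in 41.2% of Gzmb-positive and 23.3% of Gzmb-negative members with CD147-LYTACs, and in 36.7% and 11.9% in control. Gzmb was likewise in 60.6% of Itgae-positive and 45.2% of Itgae-negative members with CD147-LYTACs, and in 65.8% and 45.3% in control. Cells with a Gzmb UMI were deeper, at a median of 7704 UMIs against 6610.5 without one with CD147-LYTACs and 6171 against 5850 in control. The part of depth in these pairs was not tested. For each of the 10 genes plotted, the exact intervals of the CD147-LYTACs and control libraries overlapped.

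**Figure D3:**
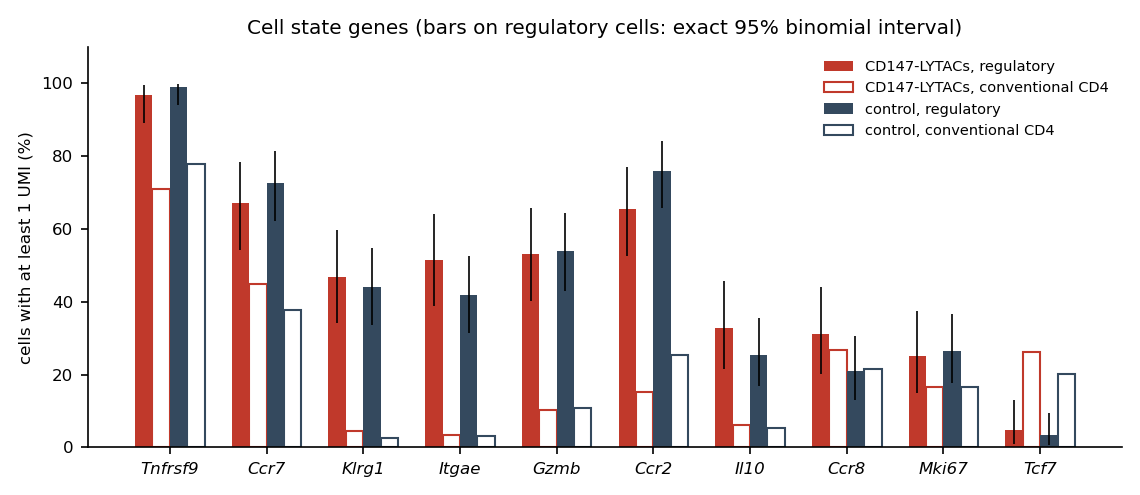
Percentage of cells with at least 1 UMI (y axis) of 10 cell state genes in regulatory (filled, with exact 95% binomial intervals) and conventional CD4 (open) T cells of the CD147-LYTACs library (red) and the control library (blue). Klrg1, Itgae, Gzmb and Il10 are each in a fraction of regulatory T cells, while Tnfrsf9 is in at least 96.9% of them in each library.

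Regulatory T cells of the CD147-LYTACs library were then set against those of the control library. A gene is called here when its summed CPM differed by at least 1.5-fold with an exact 95% interval of the ratio that excludes no difference. Of 5911 genes with at least 30 UMIs over both sums, 283 (4.79%) were called higher with CD147-LYTACs and 333 (5.63%) lower. The median log2 ratio over these genes was -0.02. Of 7 nuclear and intron-rich transcripts, 3 were called lower (Camk1d, Cdk8 and Cmss1) and none higher, with a list median of -0.48 against -0.35 in conventional CD4 and -0.49 in CD8 T cells. The list summed to 12268 CPM with CD147-LYTACs and 17492 CPM in control, and its part in the lower calls was not tested. Of 11 identity genes 1 was called, with a list median of 0.03. Without cells of 10 or more myeloid UMIs, 1 was called higher and 2 lower, at a list median of -0.11. The 2 were Itgb8 at -0.61 and Lrrc32 at -0.66. Ikzf2 had a log2 ratio of -0.32 (-0.41 to -0.24), Ctla4 -0.38 (-0.51 to -0.25), Tnfrsf4 0.09 (-0.08 to 0.25) and Izumo1r 0.03 (-0.38 to 0.45).

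Over all members the 1 identity gene called was Il2ra, with log2 ratios of 0.11 in conventional CD4 and -0.14 in CD8 T cells. In members it was at 1340 CPM with CD147-LYTACs and 868 CPM in control (log2 0.63, 0.47 to 0.78). Its ratio fell below 1.5-fold without the deepest cells, at 0.46, and in members with no UMI of the 7 keratin, myeloid and Cd8 genes, at 0.43. Of 12 genes of interleukin-2 signalling, 3 were higher and none lower, and besides Il2ra these were Socs3, an inhibitor of cytokine receptors, and Mcl1, a survival factor. Both of those calls were lost without cells of 10 or more myeloid UMIs, at 0.65 and 0.51. The receptor's other chains did not follow, with log2 ratios of -0.22 (-0.43 to -0.02) for Il2rb and -0.02 (-0.38 to 0.33) for Il2rg. Il15ra, which presents interleukin-15, was at 153 CPM with CD147-LYTACs and 42.6 CPM in control, in 24 of 64 and 23 of 91 cells (log2 1.84, 1.25 to 2.47), and its log2 ratio was -0.21 in conventional CD4 and 0.00 in CD8 T cells. Il15ra was chosen after its values were seen.

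Of 20 genes of tumour-activated regulatory T cells, 3 were higher and 2 lower. Batf, a transcription factor needed by tissue and tumour regulatory T cells, was at 228 CPM with CD147-LYTACs and 106 CPM in control, in 45 of 64 and 43 of 91 cells (log2 1.10, 0.69 to 1.52), with -0.35 in conventional CD4 T cells. Il1rl1 was at 341 CPM with CD147-LYTACs and 181 CPM in control (log2 0.92, 0.60 to 1.24), with -1.18 in conventional CD4 T cells, and Klrg1 at 244 CPM with CD147-LYTACs and 145 CPM in control (0.75, 0.38 to 1.13). The Il1rl1 call was lost in members with at least 2 Foxp3 UMIs, at 0.54, and the Klrg1 call in members with no UMI of the 7 excluded genes, at 0.34. Batf kept its call under every alternative run. Prdm1, encoding the effector factor Blimp-1, was lower at 99.6 CPM with CD147-LYTACs and 169 CPM in control (log2 -0.76, -1.24 to -0.30). Ccr8 was at 53.3 CPM with CD147-LYTACs and 33.5 CPM in control, with a log2 interval of -0.14 to 1.48.

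Of 7 inhibitory receptor genes 2 were called lower with CD147-LYTACs and none higher. The list median was -0.46 over 10 genes, 3 of them above 0, against -0.15 in conventional CD4 and 0.00 in CD8 T cells. Pdcd1 was at 40.9 CPM with CD147-LYTACs and 90.3 CPM in control (log2 -1.14, -1.89 to -0.45), in 15 of 64 and 31 of 91 cells, with a ratio of 0.11 in conventional CD4 T cells. Tigit, a receptor for CD155, was at 56.9 CPM with CD147-LYTACs and 94.2 CPM in control (-0.73, -1.37 to -0.11), in 20 of 64 and 46 of 91 cells. Lag3 and Havcr2 had log2 ratios of -0.60 and -0.54 and were not called. Lag3 was called lower without the deepest cells, at -0.74. Havcr2 was called lower as a mean over cells, at -0.59, and without cells of 10 or more myeloid UMIs, at -0.70. It was also called lower in members with no UMI of the 7 keratin, myeloid and Cd8 genes, at -0.74. Of 17 suppressive molecules, Gzmb was higher (372 CPM with CD147-LYTACs and 230 CPM in control, log2 0.69, 0.40 to 0.99) and Tigit and Fgl2 lower. The Gzmb call was lost under 4 alternatives, at 0.47 to 0.57, among them leaving out the 1 cell with the most Gzmb UMIs of each library, and that of Fgl2 under 3, at -0.35 to -0.75. In conventional CD4 T cells the Gzmb ratio was 1.26. Without cells of 10 or more myeloid UMIs, 5 of the 17 suppressive molecules were called lower and 1 higher. Il10 was at 117 CPM with CD147-LYTACs and 89.0 CPM in control, with a log2 interval of -0.11 to 0.91. For Il2ra, Il15ra, Batf, Il1rl1, Pdcd1 and Gzmb the difference between the ratio in regulatory and that in conventional CD4 T cells was not tested.

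**Figure D4:**
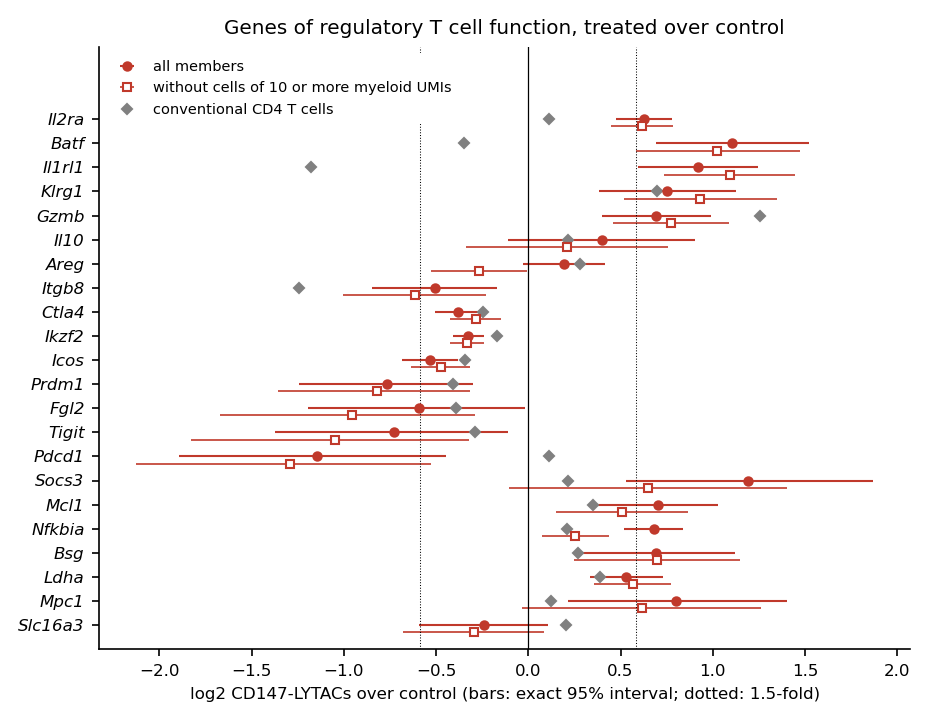
Log2 ratio of CD147-LYTACs over control (x axis, exact 95% intervals, dotted lines at 1.5-fold) for genes of regulatory T cell function, over all members (filled), without members of 10 or more myeloid UMIs (open squares) and in conventional CD4 T cells (grey diamonds). Batf, Il1rl1 and Pdcd1 lie on the other side of 0 from conventional CD4 T cells, and Nfkbia moves from 0.68 to 0.26 without the myeloid-UMI cells.

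The target of the treatment and its pathway were followed through the list of lactate transport and CD147. The transcript of the targeted protein was not lower: Bsg was at 181 CPM with CD147-LYTACs and 112 CPM in control (log2 0.69, 0.26 to 1.12), in 38 of 64 and 48 of 91 cells, with 0.27 in conventional CD4 and 0.19 in CD8 T cells. A transcript level does not measure degradation of the protein. Hepatoma-gated cells had a Bsg UMI in 99.1% of cells in both libraries, and the part of free RNA was not tested. The other of 11 genes called was Mpc1, part of the carrier that brings pyruvate into mitochondria (101 CPM with CD147-LYTACs and 58.1 CPM in control, log2 0.80), which lost its call under 3 alternatives, at 0.58 to 0.61. Ldha, which makes lactate from pyruvate, was at 770 CPM with CD147-LYTACs and 533 CPM in control and stayed under 1.5-fold, with a log2 ratio of 0.53 (0.33 to 0.73). The transporter Slc16a3 was at 201 CPM with CD147-LYTACs and 237 CPM in control (-0.24, -0.59 to 0.10), and Slc16a1, encoding MCT1, at 14.2 CPM with CD147-LYTACs and 24.5 CPM in control on fewer than 30 UMIs. None of 15 glycolysis genes was called, with a list median of 0.21 against 0.04 in conventional CD4 and 0.16 in CD8 T cells, and 1 of 23 oxidative phosphorylation genes was, with a median of 0.17 against 0.16 and 0.12.

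Of 13 type I interferon genes 4 were higher (Isg15, Isg20, Oasl1 and Ifih1) and none lower, with a list median of 0.29 against 0.26 in conventional CD4 and 0.13 in CD8 T cells. Isg15, a ubiquitin-like antiviral protein gene, was at 87.1 CPM with CD147-LYTACs and 42.6 CPM in control, and its log2 ratio of 1.03 was 0.44 without cells of 10 or more myeloid UMIs. Without those cells 1 of 11 genes of the list was called, at a median of 0.19. The Isg20 call was lost under 3 alternatives, at 0.54 to 0.60, that of Ifih1 under 4, at 0.26 to 0.94, and that of Oasl1 under 3. None of 22 interferon-gamma response genes and none of 14 TGF-beta genes was called, with medians of -0.00 and -0.26. Without the cells of 10 or more myeloid UMIs, the TGF-beta genes Itgb8 and Lrrc32 were called lower, at -0.61 and -0.66. In the same setting 1 of 22 interferon-gamma response genes was called higher. Of 5 helper cytokine genes with 30 UMIs, 3 were higher with CD147-LYTACs: Tnf, Ccl4 and Tnfsf8. Tnf, encoding the inflammatory cytokine TNF, had 63.5% of its UMIs in 1 cell and a log2 ratio of 2.26 that was 0.20 without the myeloid-UMI cells, Ccl4 was at 1.91 and -0.06 without them, and Tnfsf8, the ligand of CD30, had 59.0% of its UMIs in 1 cell. Of 18 chemokine receptor and homing genes, Ccr1 was higher, with a log2 ratio of -0.03 without the myeloid-UMI cells, and Cxcr4 and S1pr1 were lower. The Cxcr4 call was lost under 4 alternatives, at -0.30 to -0.62, and that of S1pr1 under 3, at -0.77 to -1.01. Of 16 NF-kappa-B genes, 2 were higher, Nfkbia and Icam1, and the call of Nfkbia, the NF-kappa-B inhibitor, was lost without the myeloid-UMI cells.

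Myeloid transcripts differed between the libraries and stand beside every count above. Over a list of 32 myeloid genes, 11 of 64 members (17.2%) with CD147-LYTACs and 4 of 91 (4.40%) in control held 10 or more UMIs, with a highest count of 370 and 28. Conventional CD4 T cells had such cells at 6.25% and 2.15%, and CD8 T cells at 6.50% and 2.62%. Summed over members the 32 genes stood at 2071 CPM with CD147-LYTACs and 293 CPM in control. The 14 macrophage and monocyte markers that no gate used summed to 596 CPM with CD147-LYTACs and 618 CPM in control. Of this Ccr2 gave 398 and 569 CPM, and 0 and 3 genes of the list had no UMI in the sum. The 10 such neutrophil markers summed to 1520 and 330 CPM, mostly from Cxcl2, Il1b and Il1r2. Of that list 2 and 4 genes had no UMI in the sum, Cxcr2 in both. Their part in the calls was not tested beyond leaving those cells out. The ratio was then past 1.5-fold for 229 of the 283 higher and 284 of the 333 lower genes. That count asked for no interval and no minimum of UMIs. The 229 include genes left with no UMI in either library, such as Cma1, which the floor of 3 counts puts at a log2 ratio of 0.65.

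The 12 genes with the highest ratios were mostly of this kind, among them Ccl8, Il1b, Ccl7, Cma1, Oasl1, Mcpt4, Pkib, Cpa3, Ccl17, Ccl24 and Ccl2. Of these, 11 had most of their CD147-LYTACs UMIs in 1 cell, and Cma1, Mcpt4, Cpa3 and Ccl17 had all of them in 1 cell. Cma1 and Mcpt4 encode mast cell chymases and Cpa3 the mast cell carboxypeptidase. Cma1 was at 251 CPM with CD147-LYTACs and had no UMI in control, at least 64.8-fold higher against a floor of 3 UMIs in the control sum, on that 1 cell. Il1b, encoding the inflammatory cytokine interleukin-1 beta, was at 400 CPM with CD147-LYTACs and 3.87 CPM in control (log2 6.69, 5.13 to 8.98). Without the myeloid-UMI cells its log2 ratio was 0.65 (-2.25 to 3.55). Il1b is itself 1 of the 32 genes that chose those cells, so a fall was built in. Oasl1 was the exception to the single-cell pattern, in 9 cells with CD147-LYTACs (58.7 CPM) and 1 in control (1.29 CPM, log2 5.51, 2.93 to 10.85), with 39.4% of its UMIs in 1 cell.

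Of the 283 genes called higher, 28 had most of their UMIs in 1 cell, against 1 of the 333 called lower. Calls that held without the top cell, without the myeloid-UMI cells and as a mean over cells, in at least 10 cells, numbered 111 of 283 and 180 of 333. These conditions were set, and the genes named next were chosen, after the values were seen. Besides Il15ra, Batf, Bsg and Il2ra, the higher ones included Hilpda, a lipid droplet protein gene induced by hypoxia, at 329 CPM with CD147-LYTACs and 150 CPM in control, in 43 of 64 and 45 of 91 cells. Lgals3, encoding galectin-3, was at 229 CPM with CD147-LYTACs and 58.1 CPM in control, and Tmtc2 at 430 CPM with CD147-LYTACs and 182 CPM in control. The lower ones included Cd80, a ligand of CTLA-4 and CD28, at 55.1 CPM with CD147-LYTACs and 117 CPM in control, and Cd5, which damps T cell receptor signals, at 247 CPM with CD147-LYTACs and 383 CPM in control. Cdk8, Camk1d and Cmss1 were lower as well, at log2 ratios of -1.15, -0.81 and -0.75, but were also lower in conventional CD4 (-0.92, -0.44 and -0.44) and CD8 T cells (-1.06, -0.72 and -0.53). The calls of Cd80, Camk1d and Cmss1 were lost among members with no UMI of the 7 excluded genes, at -0.74, -0.45 and -0.57.

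The 12 genes with the lowest ratios were Adam12, Tnrc18, Ube2c, Birc5, Top2a, Acsbg1, Pde3b, Ndc80, Kif11, 4930417O13Rik, Ubtd2 and Trim59. Ube2c, Birc5, Top2a, Ndc80 and Kif11 act in chromosome segregation and cell division. Acsbg1, an acyl-CoA synthetase of fatty acid metabolism, was at 44.4 CPM with CD147-LYTACs and 126 CPM in control, in 19 of 64 and 48 of 91 cells (log2 -1.51, -2.20 to -0.86), with -0.67 in conventional CD4 T cells. Adam12, a metalloprotease gene, was at 7.11 CPM with CD147-LYTACs and 63.2 CPM in control, with 73.5% of its control UMIs in 1 cell. Pde3b, a cyclic nucleotide phosphodiesterase gene, was at 37.3 CPM with CD147-LYTACs and 104.5 CPM in control, with log2 ratios of -0.74 in conventional CD4 and -0.46 in CD8 T cells. Tnrc18 was at 17.8 CPM in 8 cells with CD147-LYTACs and 55.5 CPM in 30 cells in control, with -0.07 in conventional CD4 T cells. Among members with no UMI of the 7 excluded genes both calls were lost, that of Pde3b at -0.41 and that of Tnrc18 at -2.71. The Ubtd2 ratio was -1.35, with -1.19 in conventional CD4 T cells.

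The count of proliferation genes called lower depended on the deepest cells. Of 27 genes 14 were called lower with CD147-LYTACs and none higher, with a median log2 ratio of -0.80 over 32 genes, against 0.65 in conventional CD4 and 0.21 in CD8 T cells. Mki67, the marker of cycling cells, was at 169 CPM with CD147-LYTACs and 408 CPM in control, yet was detected in 16 of 64 and 24 of 91 members. Top2a, the topoisomerase of dividing cells, was at 128 CPM with CD147-LYTACs, in 12 of 64 cells, and 365 CPM in control, in 31 of 91 cells. In control 7 members lay above the 95th percentile of UMIs of gated T cells (18636 UMIs). They all had Top2a, and they held 65.7% of the Top2a and 67.1% of the Mki67 UMIs with 23.6% of all UMIs. With CD147-LYTACs 2 members lay above that percentile (19955 UMIs) and held 30.6% of Top2a, 12.6% of Mki67 and 12.0% of all UMIs. Without these 9 cells the list median was 0.05, 3 of 18 genes were lower, and the log2 ratio was -0.07 for Mki67, 0.26 for Birc5 and -0.70 for Top2a. Members with a Mki67 UMI were deeper, with a median of 12457.5 UMIs against 5738 in those without with CD147-LYTACs, and 14336.5 against 5565 in control. Leaving out the deepest cells therefore also removes cycling cells, and depth and cycling cannot be told apart by it. As a mean over cells, which weighs each cell equally, the list median was -0.38.

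**Figure D5:**
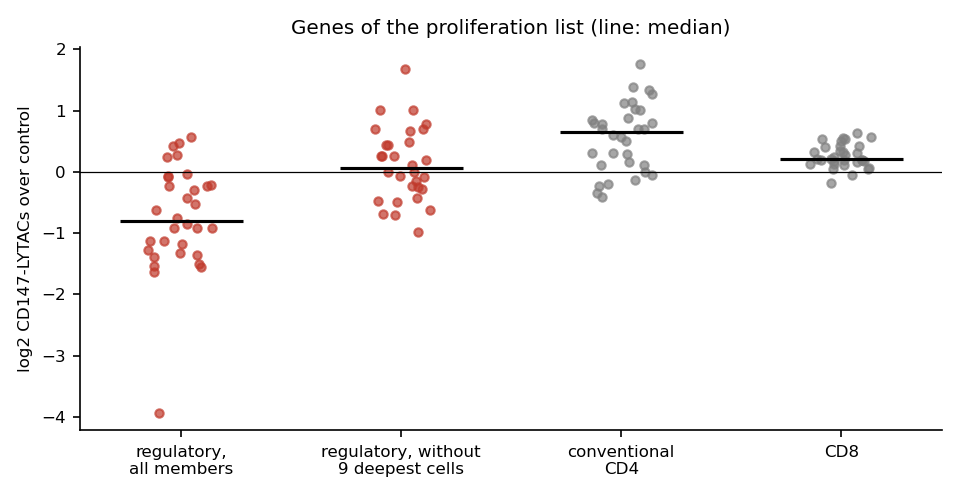
Log2 ratio of CD147-LYTACs over control (y axis) for each gene of the proliferation list (points, line at the median) in all regulatory T cells, in regulatory T cells without the 9 deepest cells, in conventional CD4 and in CD8 T cells. The median of -0.80 over all members becomes 0.05 without those cells.

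Markers of other lineages ranged from absent to well detected in members. Of 9 B and plasma cell genes, 7 with CD147-LYTACs and 6 in control were at 0, including Ms4a1 and Cd79a. Of 8 gamma-delta T cell genes, 7 and 5 were at 0, and the list summed to 1.78 and 7.74 CPM. Natural killer and innate lymphoid cell genes summed to 596 CPM with CD147-LYTACs and 446 CPM in control, most of it from Gata3 (217 and 243 CPM) and Il1rl1 (341 and 181 CPM), with Ncr1, Klrb1c, Klra8 and Klra4 at 0 in both. Hepatoma genes other than the gated keratins summed to 110 CPM with CD147-LYTACs and 83.9 CPM in control, with Apoa1 and Ttr at 0 in both. Dendritic cell genes summed to 2258 and 1262 CPM, most of it from Cd74 (855 and 339 CPM) and Ccr7 (686 and 750 CPM), with Clec9a and Siglech at 0. The class II genes H2-Aa, H2-Ab1 and H2-Eb1 were at 242, 238 and 190 CPM with CD147-LYTACs and 33.5, 33.5 and 49.0 CPM in control. They had 61.0%, 61.9% and 51.4% of their CD147-LYTACs UMIs in 1 cell, and a UMI of each was in 85.9% to 93.7% of hepatoma-gated cells. All 4 class II genes, Cd74 included, were also called higher than in conventional CD4 T cells, and the part of dendritic cells and free RNA was not tested.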

How the data were processed

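Droplet single-cell RNA-seq (10x Chromium) was done on 1 library of each group. The authors deposited filtered matrices of UMI counts per gene and barcode for 32285 genes, made with Cell Ranger 7.1.0, per the file headers. The submitters' processing notes name Cell Ranger 3.0.2 and mm10 instead, and no source used here gives the annotation release. For symbols that occur more than once (40), the gene ID with the most UMIs over both libraries stood for the symbol in the comparisons.

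The raw counts were used as deposited. Members, gene lists and rules were chosen with earlier results of these data known. Counts were summed over the cells of a population and divided by the sum's total UMIs to give CPM. Intervals are exact 95% ones: Poisson for CPM, Clopper-Pearson for shares, and conditional binomial for ratios. They and the floor of 3 counts for a 0 cover counting error only. Cells of 1 library are not replicates, so no test between groups was possible. Ratios needed 30 UMIs over both sums, list medians 10. Conventional CD4 T cells passed the gates with at least 1 Cd4 and no Foxp3 UMI. CD8 T cells had at least 2 Cd8 UMIs and no Foxp3 or Cd4 UMI. Hepatoma-gated cells had at least 10 keratin UMIs and no CD3 or Ptprc UMI.

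Named genes are the 12 highest and 12 lowest called ratios of CD147-LYTACs over control, and the 15 highest and 10 lowest of regulatory over conventional CD4 T cells, of at least 50 CPM in the higher side. Left out were mitochondrial, ribosomal, haemoglobin, immunoglobulin, T cell receptor segment and gating genes, and genes under 5% of their level in hepatoma-, neutrophil- or macrophage-gated cells. Members of the gene lists could also be named. Some genes that these rules name are not reported here. Doublets were not removed beyond the gates, and leaving out the highest Scrublet scores was an alternative. Promoter windows came from RefSeq tables on GRCm38.p6. The calculations were tested on simulated data. Python 3.11.15, numpy 2.4.6, scipy 1.17.1, pandas 2.3.3, scanpy 1.11.5 and matplotlib 3.10.9 were used.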

Additional observations from a re-analysis of the deposited data

How the results depend on the processing

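With at least 2 Foxp3 UMIs required, members were 1.97% of gated T cells with CD147-LYTACs. Among gated T cells thinned to 2000 UMIs, those within the Foxp3 and Cd8 limits were 1.65% with CD147-LYTACs and 2.01% in control. Genes higher with CD147-LYTACs numbered 181 in members with no UMI of the 7 excluded genes, 513 with a minimum of 1 UMI and 96 with 100, and genes lower numbered 166 with 100. Against conventional CD4 T cells, 143 genes were lower in cells with no UMI of the excluded genes, and with 100 UMIs 97 were higher and 119 lower. The list medians were 0.37 for glycolysis and 0.047 for oxidative phosphorylation in members with no UMI of the excluded genes, 0.10 for oxidative phosphorylation as a mean over cells, and 0.055 for proliferation without the deepest cells. The minimum of UMIs changes which genes are tested, and otherwise the cause was not tested. Values of the other sign were Birc5 at 0.26 (-0.92 to 1.44) without the deepest cells and Ccl2 at -1.35 (-6.97 to 1.99) without cells of 10 or more myeloid UMIs. Both intervals include no difference. Pkib was at -1.09 without its top cell in each library. That sign comes from the floor of 3 counts, since the only control UMI of Pkib was in the cell left out. Leaving out the myeloid-UMI cells and leaving out the top cell were chosen after seeing the data. Of 172 gene ratios followed, 104 kept their call under every alternative run, among them Batf, Bsg, Il15ra, Pdcd1 (CD147-LYTACs over control), Tigit, Prdm1, Acsbg1 and Top2a. Over all alternatives run on these ratios, 105 values lost their call, 17 gained one and 3 changed sign. Leaving out a replicate left no comparison, with 1 library per group. No paired analysis was possible because each group has 1 library. Depth limits genes under 30 UMIs, such as Slc16a1.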

Other observations

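Ighm, which encodes the immunoglobulin heavy chain of IgM, was chosen after its values were seen, and was among the genes higher in regulatory than in conventional CD4 T cells. It was at 224 CPM in regulatory against 7.43 CPM in conventional CD4 T cells with CD147-LYTACs, and at 232 against 19.6 CPM in control. An Ighm UMI was in 32 of 64 regulatory T cells with CD147-LYTACs and 53 of 91 in control, in 3.41% and 9.32% of conventional CD4 T cells, and in 1.51% and 1.80% of hepatoma-gated cells. The B cell genes Cd79a, Ms4a1 and Pax5 were at 0 in regulatory T cells of both libraries.

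Of 16 immediate-early and stress genes, 3 were higher with CD147-LYTACs (Ier2, Atf3 and Btg2) and none lower, with a list median of -0.03. Over all genes tested, 4.79% were called higher with CD147-LYTACs and 5.63% lower. Of 14 T cell receptor activation genes 1 was higher, Nfkbia, with a list median of 0.11. The Nfkbia call was lost without cells of 10 or more myeloid UMIs, at 0.26. Against conventional CD4 T cells 3 of the 14 were lower and none higher, namely Nr4a2, Nfatc1, the NFAT factor induced by receptor signals, and Bhlhe40. Of 15 TGF-beta genes 3 were higher than in conventional CD4 T cells (Tgfbr1, Lrrc32 and Itgb8) and 1 lower (Tgfbr3). Over all genes tested against conventional CD4 T cells, 2.75% were called higher and 3.09% lower. Variable segments of the T cell receptor beta chain were seen in 9 of 64 members with CD147-LYTACs and 12 of 91 in control, too few to describe clones.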
